A study of Mus musculus with 6 samples.

Results

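Integrins, laminins and the proteins that tie laminins into basement membranes were followed in mouse pancreatic islets. The genes were taken by name from the deposited count table: every integrin α gene (Itga followed by digits or letters), every numbered integrin β gene, every laminin α, β and γ chain gene, and Nid1, Nid2, Hspg2 and Agrn. This gave 41 genes of the 24421 in the table, made up of 26 integrin genes, 11 laminin genes and 4 linker genes. Of these, 38 passed the expression filter and were tested, and 3 (Itga10, Itga11 and Lama1) did not pass and are described by their counts.

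Integrins are adhesion receptors made of an α and a β subunit, and the pair decides what is bound: collagen, laminin, proteins with an RGD motif such as fibronectin and vitronectin, or adhesion molecules on other cells. Laminins are secreted trimers of an α, a β and a γ chain that assemble into the basement membrane, where nidogens, perlecan (Hspg2) and agrin (Agrn) link them to collagen networks and to the cell surface. In islets the basement membrane lies mainly around capillaries, and β cells reach it through integrins that contain the Itgb1 subunit.

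The labels described isolated islets from mice on the C57BL/6J background, with 3 libraries from mice called control and 3 with the genotype C57.DhpsloxP.MIP1-CreERT, stated to be a knockout in β cells. In that genotype a loxP-flanked Dhps allele is combined with CreERT, a recombinase activated by tamoxifen, under the mouse insulin promoter, which directs it to insulin-producing cells, so that other islet cells are not its target. Dhps encodes deoxyhypusine synthase, the enzyme that begins hypusine formation on eIF5A, a translation factor. Age, sex, diet, tamoxifen treatment, pooling of animals, the alleles carried by the controls and the meaning of HF in the sample titles are not given in the labels, nor is it stated that replicates were separate animals. The p-values therefore measure only the spread between these libraries.

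Library totals ran from 21027737 to 23249895 counts. Dhps had a level of 12.6 ± 0.704 CPM (counts per library total, after TMM scaling) for controls and 11.96 ± 0.689 in the other group (SD, n = 3 each; edgeR adjusted p = 0.742), so its total count did not separate the labels and the second group is called knockout-labelled. Islet hormone and β cell genes dominated every library, with 410554 to 555491 CPM over 14 listed genes. Several libraries stood apart in other cell types: control 3 had 994 CPM over 14 acinar genes against 10037 or more in each of the other 5 libraries, control 1 had the lowest sum over 12 stellate and fibroblast genes (93.9 CPM), and knockout-labelled library 2 had 103 CPM over 12 lymphocyte genes against at most 30.7 in the others. Sums over the lists were higher in every knockout-labelled library than in every control for acinar (27100 to 30775 against 994 to 11360 CPM), duct (1262 to 1634 against 945 to 1201), endothelial (566 to 666 against 399 to 517), stellate (360 to 452 against 93.9 to 337) and myeloid genes (302 to 387 against 181.6 to 187). Of the 9 tested duct genes 4 lay apart upward, 1 downward and 4 overlapped, beside 16.9% upward and 15.2% downward over all tested genes. The overlapping genes Krt8, Krt18, Krt7 and Epcam were plentiful in every library. Krt8 had 316 to 458 CPM in the controls against 423 to 542, and Krt18 231 to 292 against 283 to 343. Krt7 had 158 to 222 against 190 to 208 CPM, and Epcam 137 to 167 against 157 to 178. Of the 13 tested acinar genes 12 lay apart upward, but 0 were called in edgeR (smallest adjusted p = 0.0701). In bulk RNA a change in the number of cells of a type and a change in the RNA per cell cannot be told apart.

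Per kilobase of gene length, which allows levels of different genes to be set side by side, the most abundant β subunit was Itgb1, the shared partner of most matrix-binding α subunits, at 48.4 ± 4.13 CPM per kb (mean ± SD over 6 libraries). Itgb5, a partner of Itgav, followed at 16.1 ± 1.96 CPM per kb, and the other 6 β subunits lay between 0.323 and 1.84 CPM per kb. Among α subunits the RGD-binding Itgav led at 15.1 ± 1.72 CPM per kb, ahead of the laminin-binding Itga3 at 5.17 ± 0.544 and Itga6 at 4.37 ± 0.603 CPM per kb. The spreads of Itga3 and Itga6 overlapped, as did those of Itgav and Itgb5. Among the laminin chains given here Lamc1 (3.98 ± 0.257 CPM per kb) and Lamb2 (3.44 ± 0.961) were highest, with overlapping spreads, and Lamb1 stood at 2.03 ± 0.446 CPM per kb. The α chains had lower means than Lamc1, Lamb2 and Lamb1: Lama4, the α chain of vascular basement membranes, had 1.39 ± 0.232 CPM per kb and Lama5, Lama2 and Lama3 had 0.476 ± 0.117, 0.394 ± 0.163 and 0.343 ± 0.0687. Lamb3 (0.601 ± 0.595 CPM per kb) and Lamc3 (0.544 ± 0.441) also had means below that of Lama4. Nid1 (5.35 ± 1.18 CPM per kb) was above Nid2 (2.75 ± 0.175), Agrn (1.28 ± 0.470) and Hspg2 (1.07 ± 0.160). Libraries were primed from the poly-A tail, and how evenly reads covered long transcripts was not tested.

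**Figure D1:**
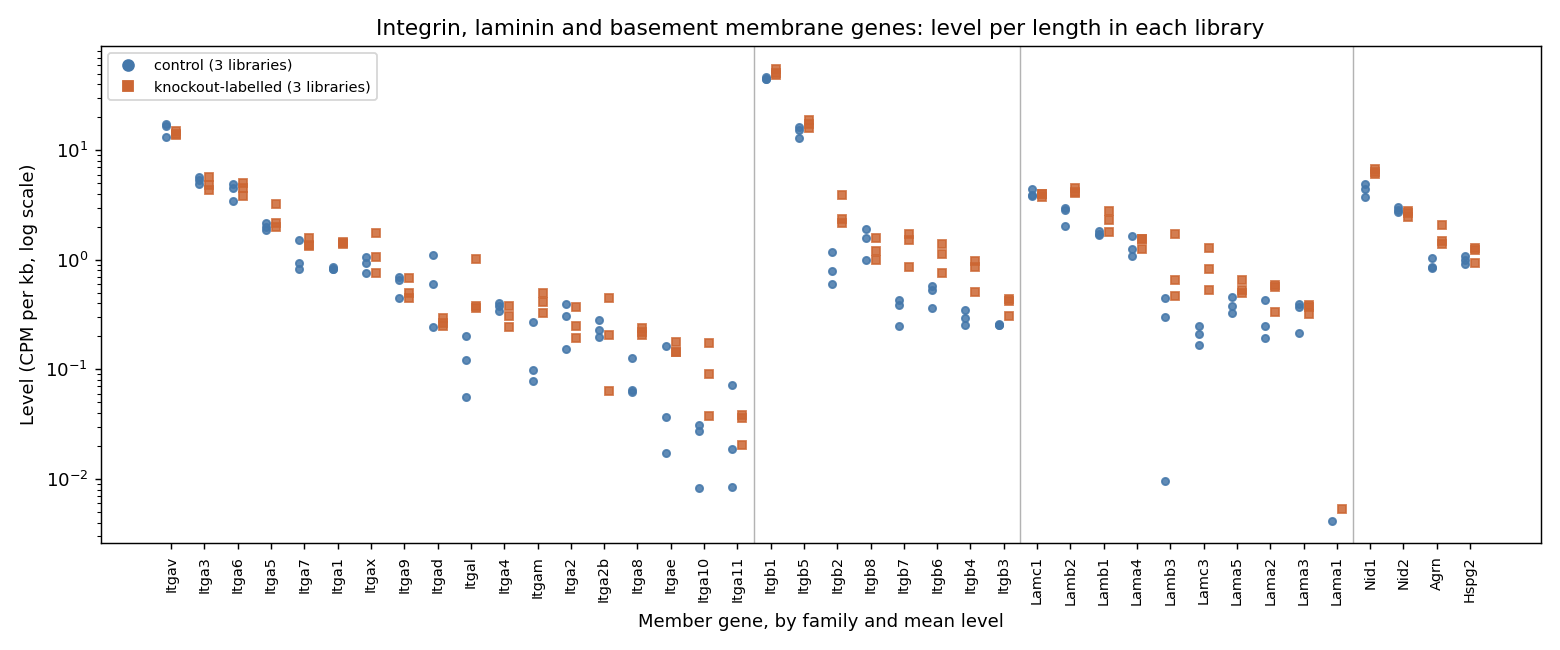
Level of each member in CPM per kb on a log axis, without 1 that is not reported, by family and mean level, with a point for each of the 3 control (circles) and 3 knockout-labelled (squares) libraries. Itgb1, Itgb5 and Itgav stand above all other members, and the 4 libraries with 0 counts of Lama1 are not drawn.

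Against the controls, 10 of the 38 tested members rose in the knockout-labelled libraries and 0 fell, by the quasi-likelihood test of edgeR, with p-values adjusted by Benjamini-Hochberg over all 13736 tested genes. The 10 were the integrin genes Itga1, Itgal, Itgb2, Itgb4, Itgb6 and Itgb7, the laminin chains Lamb2 and Lamc3, and Nid1 and Agrn. Over all tested genes 4.14% rose and 2.63% fell. At an unadjusted p under 0.05, 16 members were higher and 1, Itgad, was lower, where 14.9% of all tested genes were higher and 11.6% lower, and neither DESeq2 nor limma-voom called a member lower. The groups did not overlap, with the knockout-labelled libraries higher, for 16 tested members, and lower for 0, where 16.9% of all tested genes lay apart upward and 15.2% downward. The median log2 fold change over the tested members was 0.37 (range −1.25 to 2.22), beside 0.01 over all tested genes.

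The count of 10 rested on the full set of libraries. It was 0 without control 2 (13 of 38 members at an unadjusted p under 0.05 in edgeR, beside 2885 of 13990 genes), 1 without knockout-labelled library 1 (Itgb7), 2 without control 3 (Itgb2 and Lamb2), 4 without knockout-labelled library 2, 5 without knockout-labelled library 3 and 8 without control 1. Calls over all genes fell as well, from 568 higher and 361 lower to 87 and 12 without control 2, 56 and 8 without knockout-labelled library 1 and 174 and 42 without control 3. All 10 members kept a positive fold change in each of these fits, and the median over the tested members stayed between 0.31 and 0.43.

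**Figure D2:**
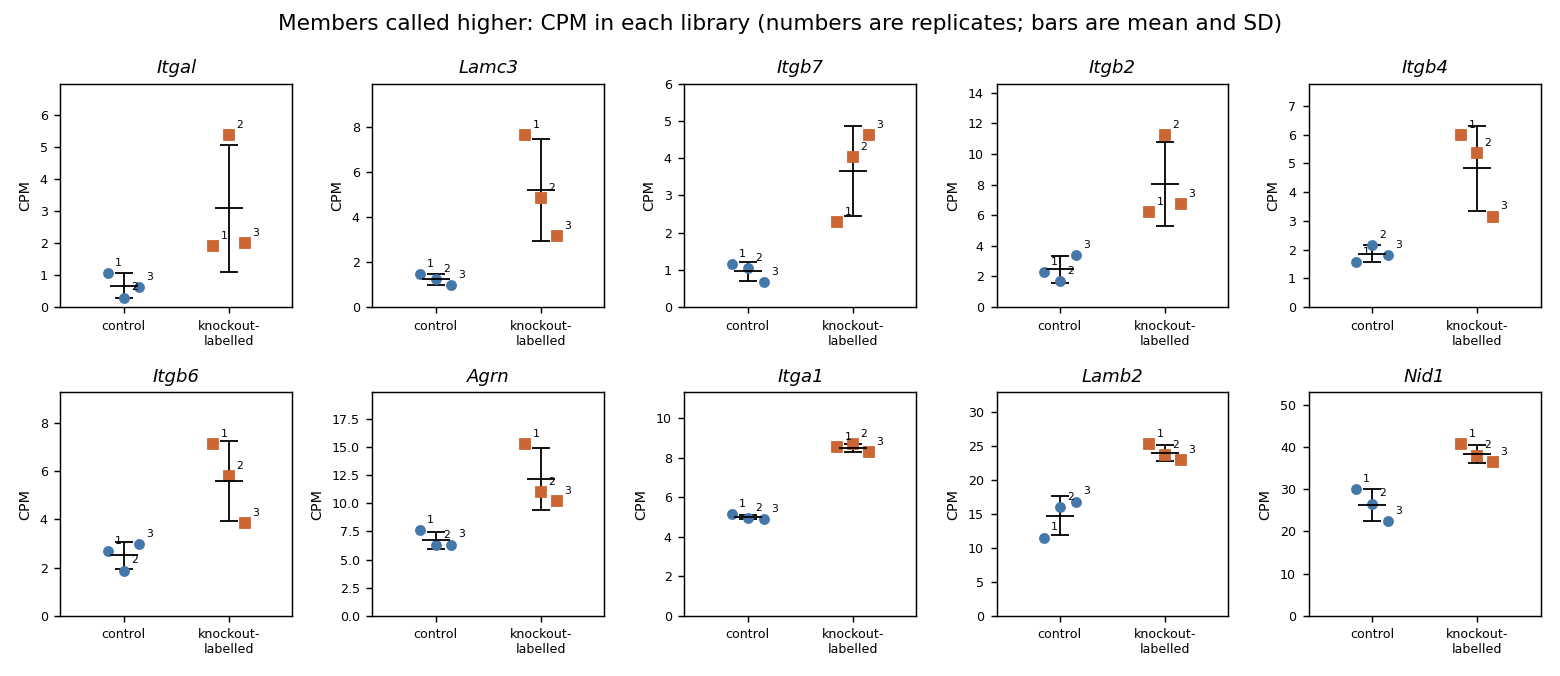
CPM of the 10 members that rose, 1 panel a gene with its own axis from 0, with each library as a numbered point and the mean and SD of 3 libraries as bars. In every panel the 3 knockout-labelled libraries lie above the 3 controls, closely grouped for Itga1, Lamb2 and Nid1 and widely spread for Itgal, Lamc3 and Itgb4.

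Nid1 was the most abundant per length of the 10 members that rose. It encodes a nidogen, a bridge between laminin and collagen IV, and lies on chromosome 13, 13437602 to 13512275 (mm10, as for all positions given). It had 30.0, 26.6 and 22.4 CPM in controls 1, 2 and 3 and 40.7, 37.9 and 36.4 CPM in knockout-labelled libraries 1, 2 and 3. All knockout-labelled values were above all control values, a log2 fold change of 0.54 ± 0.12 (SE, adjusted p = 0.0338). Its paralogue Nid2 had 13.3, 13.8 and 14.7 CPM in the controls, against 13.02, 13.6 and 12.1 CPM in knockout-labelled libraries, with a log2 fold change of −0.11 and a 95% interval from −0.37 to 0.15. Exons of Nid2 overlap 2700060E02Rik, an abundant gene, and how shared reads were counted is not given in the sources used here. Per length, the ratio of Nid1 to Nid2 was 1.82, 1.56 and 1.23 in the controls, against 2.52, 2.25 and 2.42 in knockout-labelled libraries, with no overlap.

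Agrn, the proteoglycan agrin that binds laminin and clusters receptors at synapses (chromosome 4, 156165290 to 156197488), had 7.59, 6.25 and 6.33 CPM in the controls, against 15.3, 11.0 and 10.2 CPM in knockout-labelled libraries. The groups did not overlap and library 1 was the highest, with a log2 fold change of 0.86 ± 0.18 (adjusted p = 0.0304). Hspg2, which encodes perlecan, the large heparan sulphate proteoglycan of basement membranes, had 14.1, 15.4 and 12.9 CPM against 18.3, 17.5 and 13.2 CPM. Knockout-labelled library 3 lay within the control range, and the log2 fold change of 0.21 (95% interval −0.12 to 0.54) was not called.

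Lamc3, a γ chain of low abundance (chromosome 2, 31887281 to 31946535), had 1.48, 1.25 and 0.989 CPM in the controls, against 7.66, 4.84 and 3.15 CPM in knockout-labelled libraries. It rested on 25 to 32 counts in each control and 62 to 174 in each knockout-labelled library, and rose 4.22-fold (log2 fold change 2.08 ± 0.36, adjusted p = 0.0178), the smallest adjusted p of the 38 tested members. Lamc1, the γ chain shared by most laminins, had 28.9, 29.5 and 34.0 CPM in the controls, against 30.4, 30.4 and 28.6 CPM in knockout-labelled libraries. Its log2 fold change was −0.05, with a 95% interval from −0.28 to 0.18.

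Lamb2, the β chain of mature vascular and muscle basement membranes (chromosome 9, 108479862 to 108490530), had 11.5, 15.9 and 16.8 CPM in the controls, against 25.3, 23.6 and 22.9 CPM in knockout-labelled libraries. Control 1 was the lowest and the groups lay apart, with a rise of 0.70 ± 0.15 on the log2 scale (adjusted p = 0.0290). Lamb1 had 9.77, 10.001 and 10.6 CPM against 16.3, 13.3 and 10.4 CPM, a log2 fold change of 0.40 ± 0.17 that was not called (adjusted p = 0.162). Per length, Lamb2 stood to Lamb1 as 1.21 to 1.64 in the controls and 1.59 to 2.26 in the knockout-labelled libraries, which overlap. Lamb3, the β chain of epithelial laminin, had 40, 30 and 1 counts in the controls, against 164, 58 and 38 in knockout-labelled libraries. Its log2 fold change of 1.94 had a 95% interval from 0.19 to 3.69 (adjusted p = 0.152), and it was 1.17 without knockout-labelled library 1, 1.35 without control 3 and 2.63 without control 1.

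None of the 4 tested α chains was called by edgeR, with 2 of them, Lama5 and Lama2, higher at an unadjusted p under 0.05 and none called by DESeq2 or limma-voom. Lama4 had 10.04, 6.50 and 7.55 CPM in the controls, against 9.46, 9.40 and 7.57 CPM in knockout-labelled libraries, with a log2 fold change of 0.14 (95% interval −0.29 to 0.56). Lama5, an α chain of vascular and epithelial basement membranes, had 3.75 to 5.23 CPM against 5.64 to 7.52 CPM, without overlap (0.53 ± 0.21, adjusted p = 0.138). Lama2, the α chain of muscle and Schwann cell basement membranes, had 0.78 ± 0.34 (adjusted p = 0.175), and Lama3, the epithelial α chain, 0.15 ± 0.28. Lama1, typical of embryonic basement membranes, had 1 count in control 3, 1 in knockout-labelled library 3 and 0 in the other 4 libraries.

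The collagen-binding Itga1 (chromosome 13, 114958081 to 115101964) was 1 of 2 α subunits that rose, beside the leukocyte Itgal. It had 5.14, 4.96 and 4.90 CPM in the controls, against 8.54, 8.69 and 8.28 CPM in knockout-labelled libraries. The rise was 1.70-fold (log2 fold change 0.77 ± 0.15, adjusted p = 0.0258) and lay between 0.74 and 0.78 with any 1 library left out. Itga1 was called in only 1 of these edgeR fits, without control 1 (adjusted p = 0.0355). Its highest adjusted p was 0.0871, without control 2. Itga2, the other tested collagen receptor, had 14 to 40 counts a library and a log2 fold change of −0.09 ± 0.45. Itga10 had 3, 1 and 4 counts in the controls, against 20, 4 and 9 in knockout-labelled libraries, and Itga11 had 1 to 9 counts in every library.

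The α subunits that bind laminin, and Itgav, were not called. Itga3 had 26.1, 28.3 and 30.1 CPM in the controls, against 30.2, 22.98 and 25.4 CPM in knockout-labelled libraries, with a log2 fold change of −0.10 and a 95% interval from −0.38 to 0.17. Itga6 lay at 20.9 to 29.4 CPM in the controls and 23.01 to 30.1 CPM in the others (0.05, 95% interval −0.28 to 0.38), and the muscle-rich Itga7 at 3.33 to 6.05 against 5.41 to 6.40 CPM (0.38, 95% interval −0.17 to 0.94). Itgav had 123, 93.4 and 118 CPM in the controls, against 97.0, 107 and 98.9 CPM in knockout-labelled libraries, a log2 fold change of −0.15 with a 95% interval from −0.41 to 0.12. For these 4 subunits the intervals held no 2-fold change in either direction.

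The remaining RGD-binding and related α subunits were not called either. The fibronectin receptor Itga5 had 8.11 to 9.42 CPM in the controls and 8.68 to 14.3 CPM in libraries labelled knockout (log2 fold change 0.31 ± 0.20). Itga8, a receptor of mesenchymal cells, had 16, 9 and 9 counts in the controls and 27 in each knockout-labelled library, which lay apart without passing the test (1.38 ± 0.44, adjusted p = 0.0823). Itga2b, the platelet α subunit, had 17 to 21 counts in the controls and 5 to 33 in the others (0.03 ± 0.61, and −0.83 without knockout-labelled library 2), while 7 platelet genes summed to 1.71 to 2.22 CPM against 1.68 to 3.85 CPM, with Gp6 at 0 in 5 of 6 libraries. Itga9 had 3.15, 4.96 and 4.63 CPM in the controls, against 4.84, 3.52 and 3.20 CPM in knockout-labelled libraries (−0.14 ± 0.26). Itga4 was at 3.36 to 3.98 against 2.42 to 3.71 CPM (−0.27 ± 0.25), with exons that overlap Cerkl.

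Of the 8 β subunits 4 rose and 4 were not called. Itgb1, not called, had 196, 189 and 187 CPM in the controls, against 202, 211 and 234 CPM in knockout-labelled libraries. The groups lay apart by a small margin, and the log2 fold change of 0.18 (95% interval −0.05 to 0.40) was not called (adjusted p = 0.299). Itgb5 had 42.9, 50.2 and 53.7 CPM against 57.2, 52.1 and 61.9 CPM, with overlap (0.22, 95% interval −0.03 to 0.47). Itgb8, which with Itgav binds latent TGF-β, had 3.10 to 5.96 against 3.08 to 4.93 CPM (−0.25 ± 0.29), and the platelet and endothelial Itgb3 had 1.46 to 1.503 against 1.76 to 2.54 CPM (0.60 ± 0.31, adjusted p = 0.251). The other 4, Itgb2, Itgb4, Itgb6 and Itgb7, rose, and like Itgb3 and Itgb8 each had a mean below 2 CPM per kb over the 6 libraries.

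**Figure D3:**
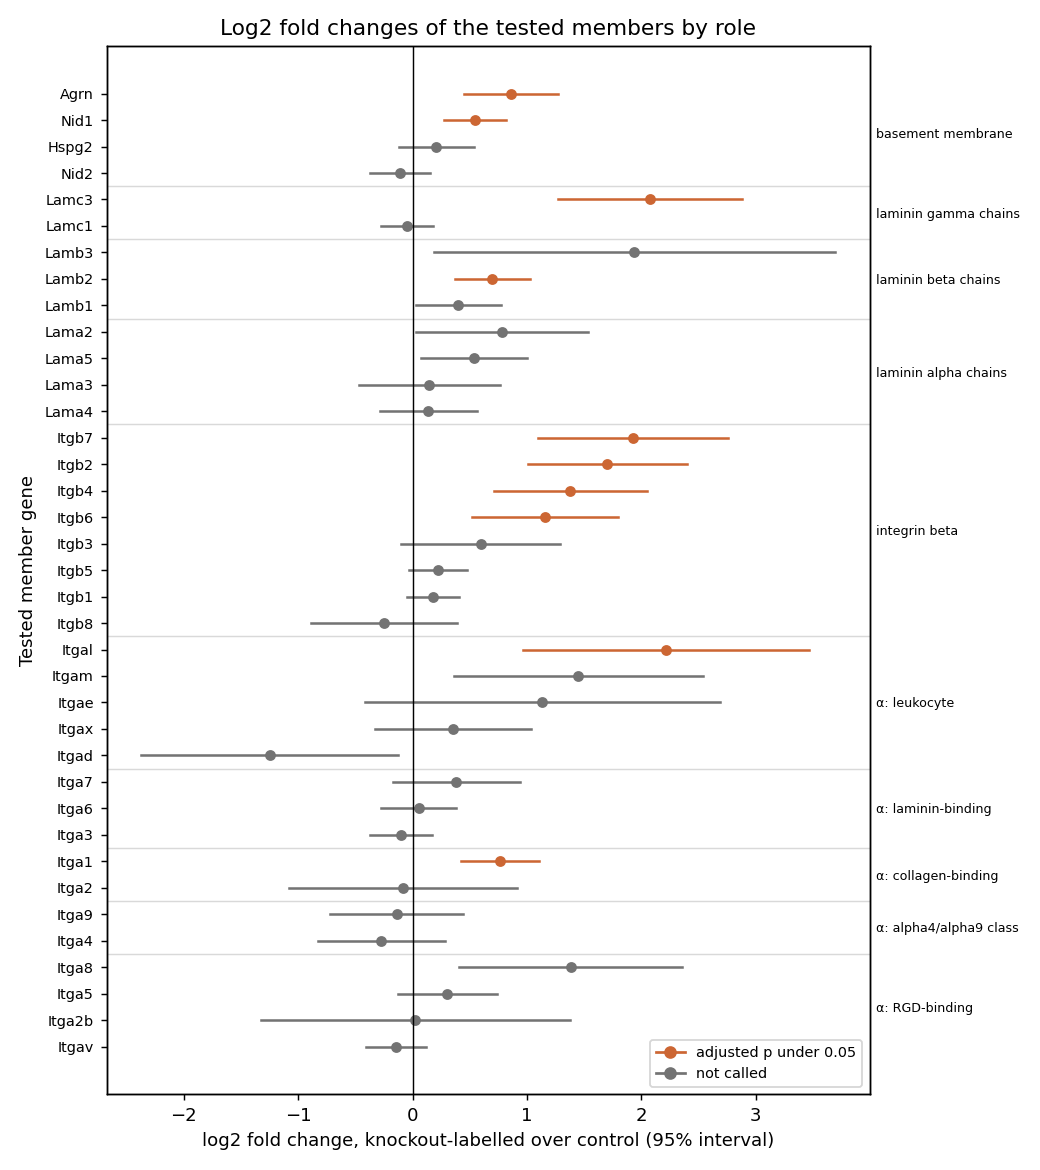
Log2 fold change (knockout-labelled over control) with its 95% interval for the tested members reported here, grouped by role, with the 10 at an adjusted p under 0.05 in orange. The intervals of Itgb1, Itgav, Itga3, Itga6 and Lamc1 are narrow and cross 0, while Itgb2, Itgb4, Itgb6, Itgb7, Itgal and Lamc3 have positive intervals above 0.5.

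Itgb4 and Itgb6 are subunits of epithelial cells. Itgb4, which pairs with Itga6 to anchor epithelia to laminin (chromosome 11, 115974725 to 116008411), had 1.57, 2.17 and 1.82 CPM in the controls, against 5.98, 5.36 and 3.15 CPM in knockout-labelled libraries. It rose 2.60-fold (log2 fold change 1.38 ± 0.30, adjusted p = 0.0315), and its exons overlap Galk1, a gene with 42.5 counts a library on average. Per length, the ratio of Itgb4 to Itga6 was 0.0734, 0.0779 and 0.0603 in the controls, against 0.214, 0.173 and 0.134 in knockout-labelled libraries. Itgb6, an epithelial partner of Itgav that activates TGF-β (chromosome 2, 60598292 to 60722603), had 2.68, 1.88 and 2.97 CPM against 7.13, 5.78 and 3.86 CPM. It rose by 1.16 ± 0.29 (adjusted p = 0.0439), with library 1 the highest and library 3 nearest to the controls.

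Genes of duct cells are set beside these members. Krt19, a keratin of duct cells, had 365, 193 and 20 counts in the controls, against 1938, 644 and 392 in knockout-labelled libraries, so that control 3 was lowest and knockout-labelled library 1 highest, as for Lamb3. For every 100 counts of Krt19, Lamb3 had 11.0, 15.5 and 5 counts in the controls, against 8.46, 9.01 and 9.69 in knockout-labelled libraries, which overlap. The log2 fold change of Krt19 was 2.42 ± 0.76 (adjusted p = 0.0804), the highest of the 9 tested duct genes, whose median was 0.32. Itgb4 and Itgb6 did not follow Krt19 in control 3, where they had 230 and 375 counts for every 100 of Krt19, against 7.02 to 26.9 in the other 5 libraries. Of 9 tested duct genes 1 was called, Spp1, beside 4.14% higher over all tested genes. Cftr, which was not tested, had 0, 1 and 0 counts in the controls, against 7, 10 and 5 in knockout-labelled libraries. The part of these cells in the rise of Itgb4 and Itgb6 was not tested.

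Of the leukocyte integrins Itgb2, Itgal and Itgb7 rose, each from a mean below 3 CPM in the controls. Itgb2, the β subunit common to leukocyte integrins (chromosome 10, 77530348 to 77565674), had 2.27, 1.71 and 3.40 CPM in the controls, against 6.20, 11.2 and 6.70 CPM in knockout-labelled libraries, a 3.26-fold rise (log2 fold change 1.70 ± 0.31, adjusted p = 0.0210). Its partner Itgal, the lymphocyte receptor for ICAM molecules (chromosome 7, 127296260 to 127335137), had 23, 7 and 16 counts in the controls, against 43, 114 and 39 in knockout-labelled libraries. Knockout-labelled library 2 was the highest, and the log2 fold change of 2.22 ± 0.56 (adjusted p = 0.0462) was 1.54 without it (adjusted p = 0.118). Itgb7, the β subunit of gut-homing lymphocytes (chromosome 15, 102215995 to 102231935), had 1.16, 1.04 and 0.672 CPM against 2.29, 4.04 and 4.62 CPM (1.93 ± 0.37, adjusted p = 0.0242).

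The other leukocyte α subunits were not called. Itgam, the α subunit of macrophages and granulocytes, had 8, 11 and 32 counts in the controls, against 35, 50 and 38 in libraries labelled knockout (log2 fold change 1.45 ± 0.49, adjusted p = 0.0958). Without control 3 it was 2.19 (adjusted p = 0.0618). Itgax, found on dendritic cells and islet macrophages, had 3.80, 3.08 and 4.31 CPM against 3.08, 7.002 and 4.27 CPM, with overlap (0.36 ± 0.31). Itgae, which joins Itgb7 on lymphocytes within epithelia, had 2 to 16 counts in the controls and 14 to 16 in the others (1.14 ± 0.70, and 2.48 without control 1). Itgad had 94, 23 and 60 counts in the controls, against 24, 21 and 23 in knockout-labelled libraries (−1.25 ± 0.50, adjusted p = 0.150). Without control 1 its log2 fold change was −0.64 (adjusted p = 0.424), and its exons overlap Cox6a2, a gene with 1025.5 counts a library on average.

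Leukocyte genes are set beside these members. Ptprc, the pan-leukocyte phosphatase, had 114, 81 and 87 counts in the controls, against 121, 443 and 165 in knockout-labelled libraries. For every 100 counts of Ptprc, Itgal had 20.2, 8.64 and 18.4 counts in the controls, against 35.5, 25.7 and 23.6 in knockout-labelled libraries. This ratio lay apart upward, whereas those of Itgb2 (43.0 to 98.9 against 54.0 to 117), Itgb7 (19.5 to 30.9 against 19.4 to 55.2) and Itgam (7.02 to 36.8 against 11.3 to 28.9) overlapped, and that of Itgax lay apart downward (71.9 to 125 against 33.6 to 57.9). Ptprc, counted here in the lymphocyte list, was not called in edgeR (log2 fold change 1.52 ± 0.44, adjusted p = 0.0643). Laptm5, a gene of blood cells in general counted here in the myeloid list, itself rose (1.21 ± 0.20, adjusted p = 0.0169). Set against Laptm5, Itgb7 lay apart upward (3.74 to 6.46 against 6.67 to 13.96), Itgax downward (16.3 to 24.0 against 8.97 to 12.9), and Itgal, Itgb2 and Itgam overlapped. Of the 12 tested myeloid genes 7 rose, and of the 11 tested lymphocyte genes 1, Cd4, rose, beside 4.14% over all tested genes. Lymphocyte gene sums overlapped between the groups (14.6 to 23.7 against 15.1 to 103 CPM). The part of leukocyte numbers in the rise of these integrins was not tested.

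Vascular and stromal genes were set beside the basement membrane members in the same way. Pecam1, an endothelial adhesion molecule, had 568, 770 and 739 counts in the controls, against 1128, 1091 and 902 in knockout-labelled libraries. It rose by 0.74 ± 0.11 on the log2 scale, with the smallest adjusted p of the endothelial list (0.0108), whereas the endothelial receptor genes Kdr (−0.02 ± 0.13) and Flt1 (−0.01 ± 0.14) were not called. For every 100 counts of Pecam1, Nid1 had 76.7 to 114 counts in the controls and 74.0 to 82.0 in the knockout-labelled libraries, Lamb2 43.7 to 57.4 against 46.0 to 50.9, Agrn 19.5 to 28.9 against 21.4 to 30.8 and Itga1 15.5 to 19.5 against 17.0 to 18.1. These 4 ratios overlapped between the groups. Lamc3 lay apart upward, with 3.38 to 5.63 against 6.87 to 15.4 counts, and Lama4 (20.3 to 38.2 against 16.5 to 19.1) and Hspg2 (44.2 to 53.7 against 28.7 to 36.9) lay apart downward. These results depended on the marker. For every 100 counts of Kdr, Nid1 (23.4 to 42.4 against 43.3 to 46.9), Lamb2 (16.2 to 17.6 against 26.9 to 29.5), Agrn (6.59 to 10.7 against 13.1 to 16.3), Itga1 (5.11 to 7.26 against 9.09 to 10.7) and Lamc3 (1.03 to 2.09 against 4.05 to 8.15) all lay apart upward, and Lama4 and Hspg2 overlapped. Set against Dcn, the proteoglycan decorin of fibroblasts, which itself rose by 1.97 ± 0.22 with the smallest adjusted p of its list (0.00543), Itga1 and Lama2 lay apart downward, and Lamc3 (8.36 to 20.5 against 9.02 to 15.4) and Itga8 overlapped. Of the 12 tested endothelial genes 5 rose, and of the 12 stellate and fibroblast genes 3 rose, beside 4.14% over all tested genes. The marker genes and pairs in these ratios were chosen after the values were seen, and no ratio was tested. The part of these cells in the rise of Nid1, Lamb2, Agrn, Itga1 and Lamc3 was not tested.

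**Figure D4:**
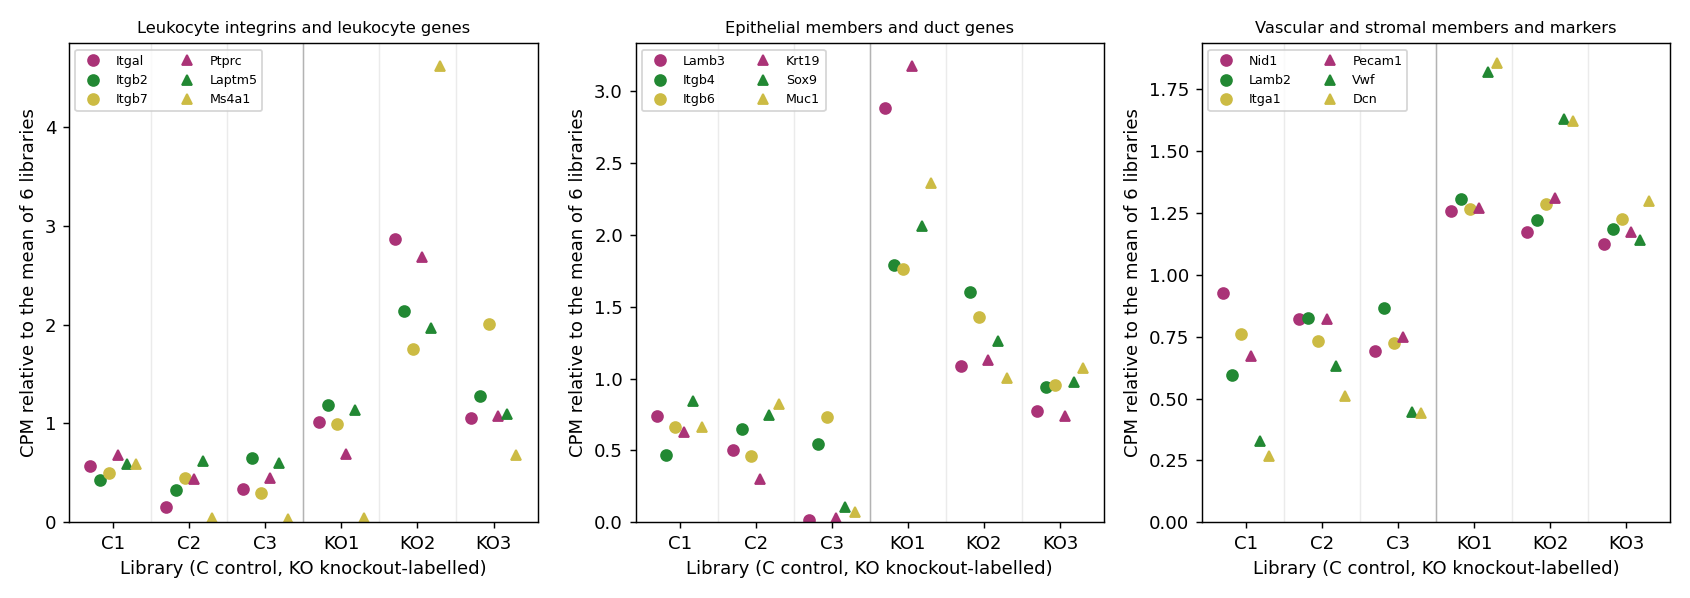
CPM of 9 members (circles) and 9 marker genes (triangles) in each of the 6 libraries, each divided by its own mean over the 6, in panels for leukocyte, epithelial and vascular or stromal genes. Itgal, Ptprc and Ms4a1 are highest in knockout-labelled library 2, Lamb3 and Krt19 are highest in knockout-labelled library 1 and lowest in control 3, and Nid1, Lamb2, Itga1 and Pecam1 are higher in all 3 knockout-labelled libraries than in all 3 controls.

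Further genes of cell adhesion came from lists chosen by function, with 69 genes in the table and 64 tested. Of these 64, 14 rose and 0 fell in edgeR, beside 4.14% higher and 2.63% lower over all tested genes. At an unadjusted p under 0.05 there were 22 higher and 5 lower of these 64, beside the 14.9% and 11.6% over all tested genes. DESeq2 called 2 lower, Cdh1 and Bcar1, among 700 lower genes in all. Of 17 tested integrin ligands 7 rose. The 4 with the smallest p were Vcam1, the endothelial ligand of Itga4 integrins (log2 fold change 1.90 ± 0.28), the matrix protein Thbs1 (1.10 ± 0.17), von Willebrand factor Vwf (1.70 ± 0.26) and vitronectin Vtn (1.20 ± 0.19). Vcam1 had 85, 83 and 57 counts in the controls, against 317, 302 and 153 in knockout-labelled libraries. Vwf and Spp1 in this list are also markers of endothelial and duct cells.

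Of 13 tested basement membrane collagens and other laminin receptors 3 rose: the syndecan Sdc1 (1.76 ± 0.21), the laminin receptor Bcam (0.59 ± 0.11) and Col18a1, a collagen of basement membranes (1.15 ± 0.27). Of the 6 tetraspanins that associate with integrins 2 rose, Cd81 (0.65 ± 0.11) and Cd9 (0.97 ± 0.22). Of 28 tested genes of the cytoplasmic machinery 2 rose: Tns1, a tensin that links β subunits to actin (0.83 ± 0.14), and Fermt3, the kindlin of blood cells that activates leukocyte integrins (1.72 ± 0.44, adjusted p = 0.0477). Fermt3 had 40, 21 and 24 counts in the controls, against 53, 133 and 68 in knockout-labelled libraries, with library 2 the highest, as for Itgal and Itgb2. The median log2 fold change was 0.12 over the cytoplasmic genes and 0.80 over the ligands, beside 0.24 over all 64 genes. The 14 calls fell to 1 without knockout-labelled library 1, 4 without control 2 and 6 without control 3.

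The upstream sequences of 2 of the members that rose, Agrn and Itga1, and of Lama5, which was not called, are shown because their windows carry no annotated exon and differ in base content. Each is the 250 bases before the RefSeq start in GRCm38.p6 (the mm10 assembly), 5′ to 3′ on the gene's strand. The windows are chr4:156197489-156197738 (minus strand) for Agrn, chr13:115101965-115102214 (minus strand) for Itga1 and chr2:180225860-180226109 (minus strand) for Lama5. Capitals mark matches on either strand to the SP/KLF box GGGCGG or the ETS core GGAAGT.
Agrn: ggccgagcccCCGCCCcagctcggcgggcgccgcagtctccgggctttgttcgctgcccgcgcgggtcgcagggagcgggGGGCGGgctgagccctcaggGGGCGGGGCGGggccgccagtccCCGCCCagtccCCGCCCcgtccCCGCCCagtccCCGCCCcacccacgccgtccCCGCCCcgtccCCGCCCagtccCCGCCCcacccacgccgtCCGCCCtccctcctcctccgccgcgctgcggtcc
Itga1: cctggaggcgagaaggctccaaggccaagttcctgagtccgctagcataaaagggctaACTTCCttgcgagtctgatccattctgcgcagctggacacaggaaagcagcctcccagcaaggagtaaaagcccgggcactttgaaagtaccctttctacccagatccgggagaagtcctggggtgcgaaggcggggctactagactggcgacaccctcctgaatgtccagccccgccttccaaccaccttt
Lama5: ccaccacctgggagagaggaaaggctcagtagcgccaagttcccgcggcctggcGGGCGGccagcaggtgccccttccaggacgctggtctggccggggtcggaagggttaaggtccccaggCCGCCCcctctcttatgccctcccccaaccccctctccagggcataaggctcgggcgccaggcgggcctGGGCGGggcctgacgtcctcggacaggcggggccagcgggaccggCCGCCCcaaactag

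The Agrn window was 83.6% G and C and held 12 matches to the SP/KLF box, of which 1 pair overlapped, and Lama5 held 4 at 72.4%. The Itga1 window was 57.6% G and C, with 0 SP/KLF boxes and 1 ETS core, while the other windows held 0 ETS cores. The AP-1 letters TGANTCA, the RUNX letters TGTGGT and the promoter box TATAAA were searched on both strands as well and had 0 matches in the 3 windows. Over 32851 promoter windows of the same length, 32.7% held the SP/KLF box and 19.7% the ETS core, 6.75% the AP-1 letters, 14.05% the RUNX letters and 12.4% the promoter box, and the median G and C content was 52.4%. Matches are a description of the letters and not of binding, which was not measured.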

How the data were processed

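The deposited table holds whole-number counts per gene for each of the 6 libraries, not normalized, per the file headers, with exon coordinates and a gene length column in another unit (bp). Per the labels' protocols, 10 ng of total RNA per sample was copied with poly-dT priming and SMART-Seq v4 chemistry, sonicated and made into Ion Plus libraries, which keep no strand. Tools listed in the submitters' processing notes are STAR 2.4.2a, Subread 1.5.0 with featureCounts, and edgeR, on mm10; which annotation was used and how shared reads were handled is not given in the sources used here.

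Counts were fitted over all genes in edgeR 4.0.16 (R 4.3.3) with TMM factors, the default expression filter by group, group as the only term, quasi-likelihood tests and Benjamini-Hochberg adjustment at 0.05; 13736 genes were tested. Standard errors and 95% intervals derive from the quasi-likelihood F. CPM use TMM-scaled totals, and CPM per kb divide by the deposited gene length. The fit was tested on simulated counts. Libraries of a group differed beyond counting noise (chi-square per degree of freedom 10.8 or more). GenomicRanges 1.54.1 was used to find members whose exons overlap another gene on either strand. Alternatives were RLE, upper-quartile and restricted TMM factors, other filters, DESeq2 1.42.0, limma-voom (limma 3.58.1), a replicate block and leaving out each library.

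The members, lists and tests were chosen with earlier results of these data known. Members are named, except that 1 tested member, which was not called, counts in the totals and is not reported by itself here; the members that rose and the most abundant member of each role have values in every library, and up to 4 called genes with the smallest p are named per adhesion list. RefSeq promoter sequences (GRCm38.p6) were found for 26 of the 41 members.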

Additional observations from a re-analysis of the deposited data

How the results depend on the processing

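The 10 calls among members were the same 10 genes with RLE, upper-quartile or restricted TMM factors, with no filter, with at least 1 CPM in 3 libraries and in DESeq2. limma-voom kept 8, without Itgal (adjusted p = 0.0622) and Itgb6 (0.0513). With the replicate number as a block (replicate block) 8 members rose, again without Itgal (adjusted p = 0.0811) and Itgb6 (0.0624), and 539 genes rose and 287 fell over all genes. Deviations of same-numbered libraries correlated at −0.06, 0.03 and 0.03, which gave no sign that the numbers pair the libraries. With only 3 libraries in each group, pairing is not excluded. Leaving out 1 library gave 0 to 8 members higher and 0 lower, 1 to 13 adhesion list genes higher, and 56 to 534 genes higher and 8 to 434 lower over all genes. Over all genes, where the fit reported here gave 568 higher and 361 lower, no filter gave 620 lower, and DESeq2 gave 958 higher and 700 lower, with 2 adhesion list genes lower. Upper-quartile factors gave 615 higher and 279 lower. Each of the 10 members stayed positive in all 14 alternatives and was called in 7 (Itgal and Itgb6) to 12 (Itgb2) of them. Low counts limit several members, among them Itgal, Itgae, Itga2b, Itga8, Lamb3, Itgam, Itgad, Itga2, Itgb7 and Lamc3, whose intervals span over 2-fold.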
